A study of Mus musculus with 48 samples.

Results

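The genes described here are the enzymes that lengthen and desaturate polyunsaturated fatty acids in mouse liver: the desaturases Fads1, Fads2 and Fads3 and the elongases Elovl1, Elovl2 and Elovl5. They were found by their symbol among the probes of a one-colour Agilent array, and all 6 were measured, out of 20486 genes with a probe above background. The symbols matched 17 probes, of which 16 were kept. The liver RNA came from 48 male mice, 1 mouse per array and 6 mice in each of 8 groups, which crossed genotype, diet and nutritional state. The p110αhep-/- mice (labelled LKO) lack p110α, the catalytic subunit of phosphoinositide 3-kinase encoded by Pik3ca, in cells that express the albumin-Cre transgene, which in liver means hepatocytes. The p110αhep+/+ mice (labelled LWT) are littermates with the same floxed alleles and no Cre, so both genotypes carry the floxed gene and no group carries Cre alone. Mice were 12 weeks old when the diets began and ate either a control diet (CTRL) or a high-fat diet (HFD, 60% of calories from fat) for 12 weeks. They were fed ad libitum or fasted for 24 h, and all were killed at ZT16, 16 h after lights on.

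Polyunsaturated fatty acids of the n-6 and n-3 families start from linoleic and alpha-linolenic acid, which mammals must eat. FADS2 introduces the first double bond, ELOVL5 adds a pair of carbons, and FADS1 introduces the next double bond, which gives arachidonic and eicosapentaenoic acid. ELOVL2 lengthens these products further on the way to docosahexaenoic acid. FADS3 is a related desaturase that acts on sphingoid bases, and ELOVL1 lengthens saturated and monounsaturated very long chains for sphingolipids. In liver, the genes of this pathway are classical targets of SREBP-1c, which insulin activates and which dietary polyunsaturated fatty acids restrain.

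Between 50.1% and 57.4% of probes were well above background on an array, and no spot of a member probe was saturated. Each of the 6 slides held 1 array of every group, and the slides fell into 2 washing batches of 3. The array with the lowest weight in the fit (0.35) was replicate 3 of fed p110αhep-/- mice on HFD. Values without it are given for genotype in fed mice on HFD and for fasting of p110αhep-/- mice on HFD. They are also given for the Fads2 difference between diets in the fasting effect of p110αhep-/- mice. The Pik3ca probe gave no check of the deletion: it was higher in fed p110αhep-/- than in fed p110αhep+/+ mice, with a log2 fold change of 0.39 for CTRL and 0.58 for HFD (limma adjusted p = 0.000419 and 2.99e-07). All 6 hepatocyte markers were measured, but the brightest of them, such as Alb, lie at the top of the signal range, which quantile normalization makes nearly equal on all arrays, so their sum is no check of hepatocyte content. In whole liver, fewer cells of a type and less RNA per cell cannot be told apart.

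A pair of Fads2 probes lies in coding sequence and is shown because both gave nearly the same picture of the gene. The first is the brightest Fads2 probe and reads into the end of the open reading frame. Its 60 bases cover chr19:10138750-10139180 on the minus strand of mm9, a longer stretch than the probe, so it crosses an intron, and the capitals mark the stop codon. The second lies at chr19:10163229-10163288 on the minus strand, and its capitals mark the 15 bases that encode a histidine box, a motif of histidines that holds the iron of the desaturase.
A_51_P364609: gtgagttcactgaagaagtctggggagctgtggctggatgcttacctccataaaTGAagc
A_66_P130115: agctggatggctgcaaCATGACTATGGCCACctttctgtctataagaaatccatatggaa

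The promoters of Elovl5 and Fads2 are shown because these 2 members correlated most closely over the 48 arrays (r = 0.90). Sequences are the 250 bases before the transcript start, from RefSeq on GRCm38.p6, at chr9:77917115-77917364 on the plus strand for Elovl5 and chr19:10101504-10101753 on the minus strand for Fads2. Capitals mark exact matches on either strand to CCAAT (the NF-Y motif), CACGTG (an E-box), TCACNCCAC (a sterol element) or TGACGTCA (a cyclic AMP response element).
Elovl5: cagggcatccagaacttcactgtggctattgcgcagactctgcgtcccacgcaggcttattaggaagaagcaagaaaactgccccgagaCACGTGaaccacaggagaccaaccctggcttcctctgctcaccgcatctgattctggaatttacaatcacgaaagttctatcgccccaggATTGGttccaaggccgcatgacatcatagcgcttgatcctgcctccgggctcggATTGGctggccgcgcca
Fads2: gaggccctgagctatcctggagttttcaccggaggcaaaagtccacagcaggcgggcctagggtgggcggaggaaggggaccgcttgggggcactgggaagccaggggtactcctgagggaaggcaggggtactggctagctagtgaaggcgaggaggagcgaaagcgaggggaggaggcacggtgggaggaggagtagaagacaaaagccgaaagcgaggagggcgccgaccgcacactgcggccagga

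The Elovl5 window held CCAAT 71 and 17 bases before the start and CACGTG 161 bases before it. The Fads2 window held none of the 4 motifs, which says only that these letters are not in this window. Of 32851 promoter windows of this length, 33.8% held CCAAT, 6.02% CACGTG, 1.05% TCACNCCAC and 1.55% TGACGTCA. CCAAT was also found in 1 of the 2 Elovl1 windows and at 2 places in the Fads3 window, and neither Elovl2 window held a motif. The motifs do not overlap one another. A match is a description of the sequence and not a site of binding.

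Levels below are normalized log2 signals of the brightest probe of each gene, and levels of different probes were not set against each other. A log2 fold change comes from a limma fit with array weights over all 48 arrays, so it can differ from the difference of the group means. Genes with an adjusted p of at most 0.05 (limma, Benjamini-Hochberg across the kept probes) are those named as called.

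**Figure D1:**
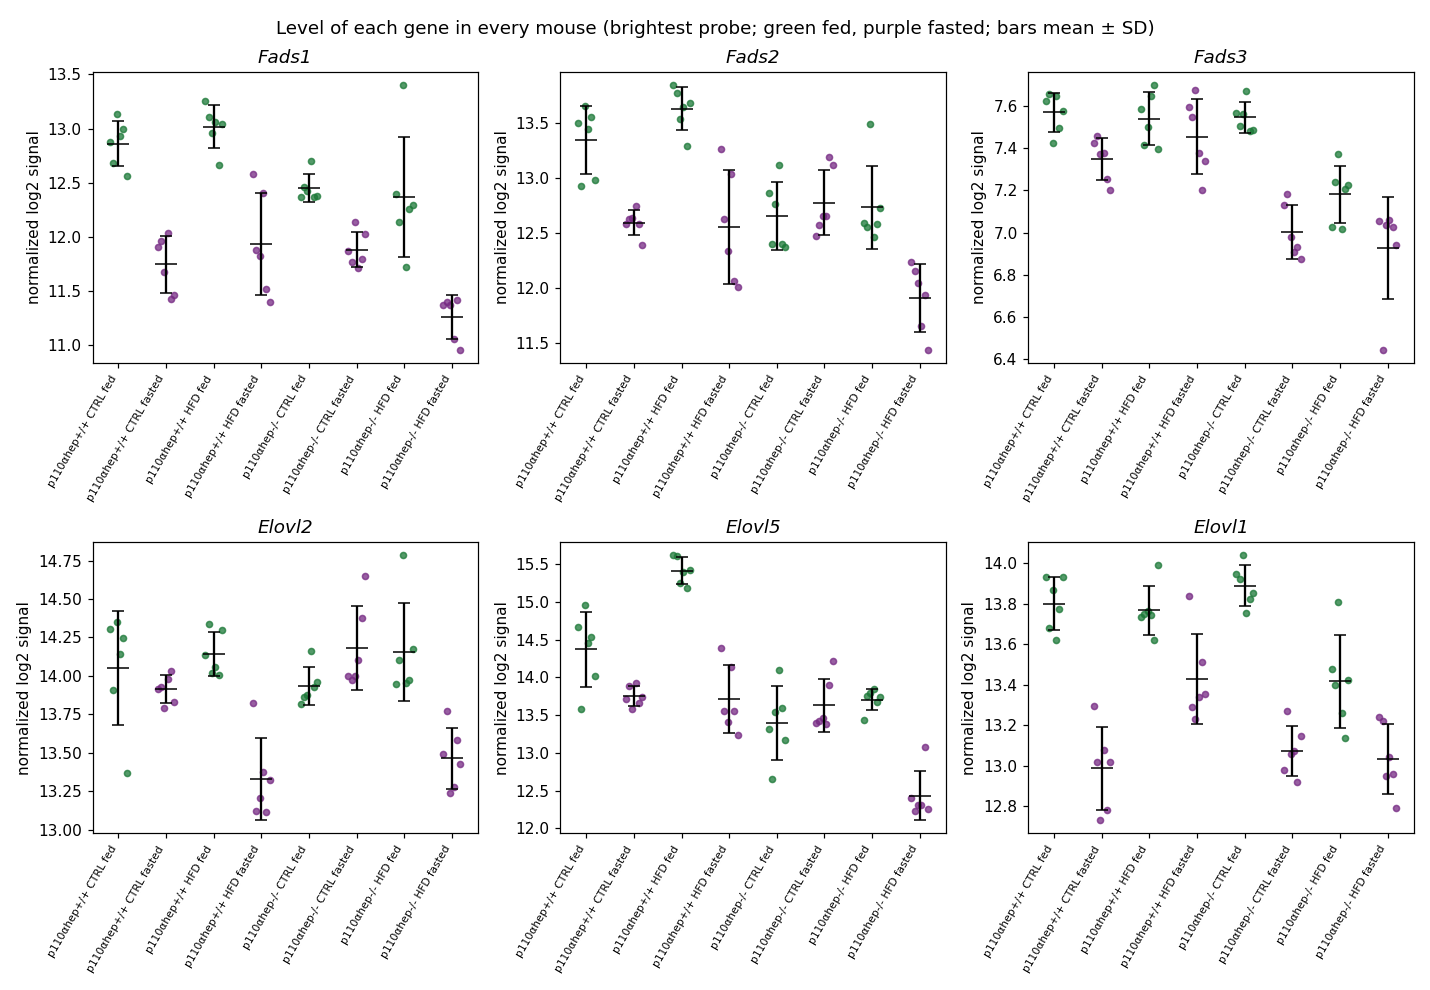
Normalized log2 signal (vertical axis) of the brightest probe of each gene in every mouse of the 8 groups (horizontal axis), green for fed and purple for fasted mice, with the mean ± SD of 6 mice. Elovl5 is highest in fed p110αhep+/+ mice on HFD, where all 6 mice lie between 15.18 and 15.62, and lowest in fasted p110αhep-/- mice on HFD.

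Fads2 encodes the delta-6 desaturase that opens the pathway. Its level in fed p110αhep+/+ mice ran from 12.93 through a median of 13.47 to 13.66 on CTRL diet and from 13.29 through 13.66 to 13.84 on HFD. In fasted p110αhep+/+ mice it ran from 12.39 through 12.61 to 12.75 on CTRL diet and from 12.01 through 12.48 to 13.27 on HFD. Fed and fasted p110αhep+/+ mice did not overlap on either diet. In fed p110αhep-/- mice the level ran from 12.37 through 12.58 to 13.12 on CTRL diet and from 12.46 through 12.59 to 13.49 on HFD. In fasted p110αhep-/- mice it ran from 12.47 through 12.65 to 13.19 on CTRL diet and from 11.44 through 11.99 to 12.23 on HFD. Fed and fasted p110αhep-/- mice therefore overlapped on CTRL diet and did not overlap on HFD.

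Fads1, the delta-5 desaturase, is measured at chr19:10270530-10270589 on the plus strand of mm9. In p110αhep+/+ mice its level ran from 12.56 through 12.90 to 13.13 fed and from 11.43 through 11.79 to 12.04 fasted on CTRL diet. On HFD the same genotype gave 12.67 through 13.05 to 13.26 fed and 11.40 through 11.85 to 12.58 fasted. Fed mice were above fasted mice with no overlap on both diets. In p110αhep-/- mice the level ran from 12.37 through 12.40 to 12.70 fed and from 11.71 through 11.83 to 12.13 fasted on CTRL diet. On HFD it ran from 11.72 through 12.28 to 13.40 fed and from 10.96 through 11.37 to 11.41 fasted, again with no overlap. The SD of Fads1 was widest in fed p110αhep-/- mice on HFD (0.56, n = 6) and narrowest in fed p110αhep-/- mice on CTRL diet (0.13, n = 6).

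Elovl5, which lengthens the products of FADS2, is measured at chr9:77832205-77832264 on the plus strand of mm9. In p110αhep+/+ mice its level ran from 13.58 through 14.49 to 14.96 fed and from 13.58 through 13.73 to 13.92 fasted on CTRL diet, and these mice overlapped. On HFD it ran from 15.18 through 15.41 to 15.62 fed and from 13.24 through 13.55 to 14.39 fasted, with no overlap. In p110αhep-/- mice it ran from 12.65 through 13.43 to 14.10 fed and from 13.38 through 13.44 to 14.21 fasted on CTRL diet. On HFD it ran from 13.44 through 13.74 to 13.85 fed and from 12.23 through 12.31 to 13.08 fasted. Fed p110αhep+/+ mice on HFD stood above every other mouse of the study for this gene, and its group mean was the highest of the 8. Among the 7 steps between neighbours in the order of group means, ranges overlapped at 6, and 4 steps were smaller than the larger SD of the pair.

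Elovl2, the elongase of the longer polyunsaturated chains, has a single probe at chr13:41277884-41277943 on the minus strand of mm9. On CTRL diet its level ran from 13.37 through 14.19 to 14.35 in fed and from 13.79 through 13.92 to 14.03 in fasted p110αhep+/+ mice. On HFD it ran from 14.01 through 14.10 to 14.33 in fed and from 13.12 through 13.27 to 13.83 in fasted p110αhep+/+ mice. The diets thus differ in whether fed and fasted mice overlap. The p110αhep-/- mice ran from 13.82 through 13.90 to 14.16 fed and from 13.97 through 14.05 to 14.65 fasted on CTRL diet. On HFD they ran from 13.95 through 14.04 to 14.78 fed and from 13.24 through 13.46 to 13.77 fasted. The 2 fasted groups on HFD had the lowest means of the 8 groups, 13.33 ± 0.27 in p110αhep+/+ and 13.46 ± 0.20 in p110αhep-/- mice (SD, n = 6), and did not differ beyond their spread.

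Elovl1, the elongase of saturated and monounsaturated very long chains, is measured at chr4:118105163-118105222 on the plus strand of mm9. Its 3 highest group means were those of fed p110αhep-/- mice on CTRL diet (13.89 ± 0.10), fed p110αhep+/+ mice on CTRL diet (13.80 ± 0.13) and fed p110αhep+/+ mice on HFD (13.77 ± 0.12; SD, n = 6). Fed p110αhep-/- mice on HFD lay lower, from 13.13 through 13.41 to 13.81. The 3 lowest means, between 12.99 and 13.07, were those of both fasted groups on CTRL diet and of fasted p110αhep-/- mice on HFD, and their ranges overlapped.

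Fads3 is dim, at chr19:10132641-10132700 on the plus strand of mm9, with group means between 6.93 and 7.57, so its differences are less certain. Its 3 lowest means were those of p110αhep-/- mice on HFD, fed (7.18 ± 0.14) and fasted (6.93 ± 0.24; SD, n = 6), and of fasted p110αhep-/- mice on CTRL diet, which ran from 6.88 to 7.18. The other 5 group means lay between 7.35 and 7.57.

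Fasting lowered most of these genes in p110αhep+/+ mice. On CTRL diet, 5 of the 6 fell, where 16.5% of all genes fell and 16.0% rose. Fads1 had the largest change, at -1.16 on the log2 scale (SE 0.15, limma adjusted p = 4.14e-08), and was lower on all 6 slides. Elovl1 fell by 0.86, Fads2 by 0.79 and Elovl5 by 0.73 on the log2 scale (limma adjusted p = 3.41e-10, 0.000112 and 0.00113). Fads3 changed by -0.21 (limma adjusted p = 0.0438), a call lost when any of 9 of the 12 arrays was left out, with values between -0.24 and -0.17. Elovl2 was not called (log2 fold change -0.17, limma adjusted p = 0.323).

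On HFD, fasting of p110αhep+/+ mice also gave 5 called members, all lower, where 14.7% of genes fell and 13.8% rose. Elovl5 had the largest change, -1.69 (SE 0.17, limma adjusted p = 1.70e-10), a 3.23-fold lower signal. Fads1 fell by 1.05, Fads2 by 1.04, Elovl2 by 0.85 and Elovl1 by 0.39. Fads3 was not called here (log2 fold change -0.06, limma adjusted p = 0.616). The fasting effect differed between the diets in p110αhep+/+ mice for 3 members, against 2.36% of all genes called in either direction: Elovl5 (difference of log2 fold changes -0.96, limma adjusted p = 0.0249), Elovl2 (-0.68, 0.0242) and Elovl1 (0.47, 0.0318). Elovl5 and Elovl2 thus fell more on HFD and Elovl1 fell less. The calls of Elovl5, Elovl2 and Elovl1 were lost when any of 3, 4 and 8 of the 24 arrays was left out, and all 3 were lost without replicate 6 of fed p110αhep+/+ mice on CTRL diet. Within washing batch 1 and 2 the differences were -1.16 and -0.67 for Elovl5, -0.53 and -0.73 for Elovl2 and 0.41 and 0.52 for Elovl1, with none called.

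In p110αhep-/- mice on CTRL diet, fasting left Fads2 and Elovl5 without a call. Their log2 fold changes were 0.02 and 0.09, with 95% confidence intervals of -0.30 to 0.35 and -0.27 to 0.45. Elovl1 (-0.83), Fads1 (-0.57) and Fads3 (-0.54) fell, 3 of 6 members, where 19.1% of genes fell and 16.4% rose. The difference between genotypes in the fasting effect on CTRL diet was called for Fads2 only (0.82, standard error 0.23, limma adjusted p = 0.0306), where 3.92% of genes were called in either direction. Elovl5 had a difference of the same size and missed the threshold (0.82, limma adjusted p = 0.0524). The Fads2 call was lost when any of 5 of the 24 arrays was left out, with values between 0.74 and 0.91, and it was 0.62 and 0.95 within washing batch 1 and 2, called in neither.

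On HFD, all 6 members fell with fasting in p110αhep-/- mice, where 14.6% of genes fell and 13.9% rose. The log2 fold changes were -1.29 for Elovl5, -0.98 for Fads1, -0.71 for Fads2, -0.61 for Elovl2, -0.32 for Elovl1 and -0.27 for Fads3. Without replicate 3 of the fed group all 6 were still called, with Fads1 at -0.90, Fads2 at -0.65 and Elovl2 at -0.56. The Fads3 call was lost without replicate 2 of either group, with values between -0.30 and -0.15 over the 12 arrays left out. No member was called for a difference between genotypes in the fasting effect on HFD with limma, none had an unadjusted p under 0.05, and 3.37% of all genes were called. Within p110αhep-/- mice, the fasting effect differed between diets for 4 members, where 7.90% of genes were called: Elovl5 (-1.38, limma adjusted p = 0.000501), Elovl2 (-0.80, 0.0042), Fads2 (-0.74, 0.0490) and Elovl1 (0.51, 0.0129). The Fads2 call was lost when any of 16 of 24 arrays was left out, and without replicate 3 of fed p110αhep-/- mice on HFD it was -0.68 (limma adjusted p = 0.0643).

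**Figure D2:**
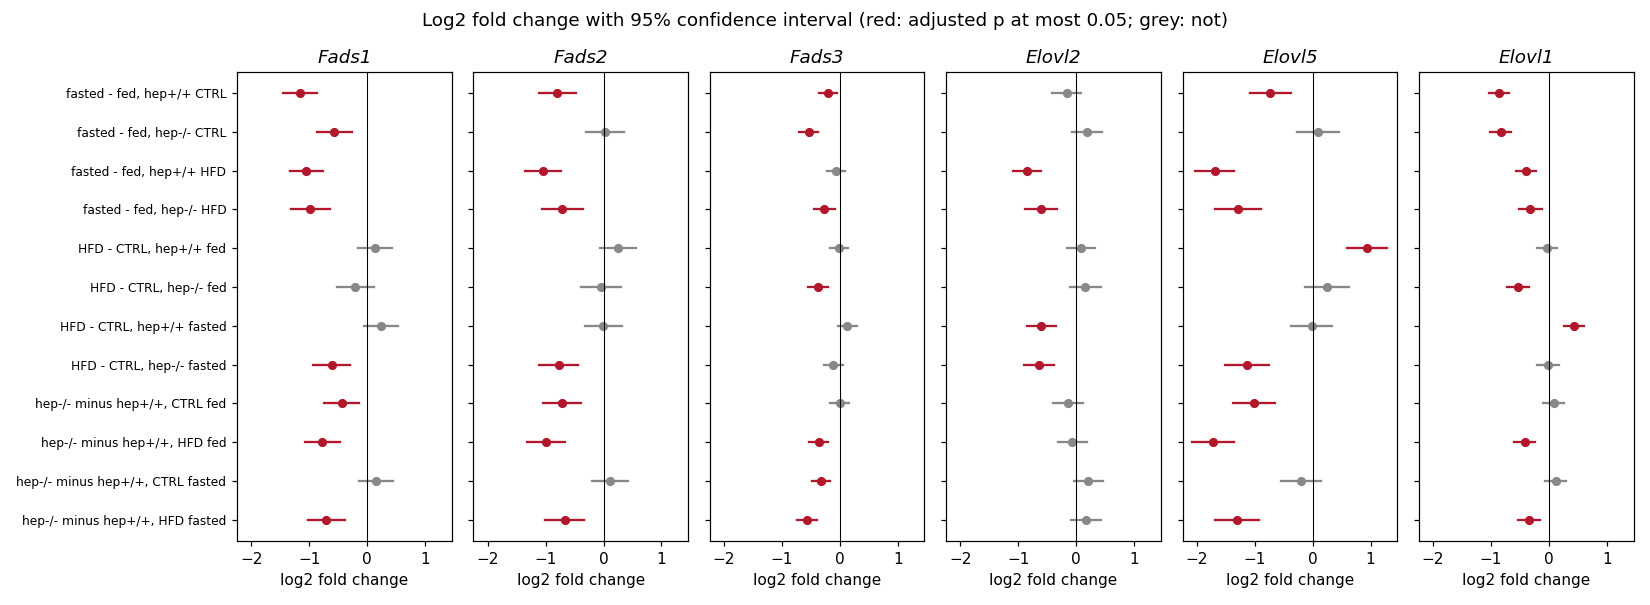
Log2 fold change (horizontal axis) with its 95% confidence interval for each gene in the 12 comparisons (vertical axis), in red where the adjusted p was at most 0.05. Fads2 and Elovl5 are near 0 for fasting only in p110αhep-/- mice on CTRL diet, at 0.02 and 0.09.

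In fed mice, 1 member was called for diet in p110αhep+/+ and 2 in p110αhep-/- mice. In fed p110αhep+/+ mice, Elovl5 was the 1 member called on HFD and rose by 0.94 (log2, SE 0.17, limma adjusted p = 6.17e-05), higher on all 6 slides and with no overlap, where 12.4% of genes rose and 11.7% fell. Within washing batch 1 it was 1.18, and within batch 2 it was 0.67 and not called (limma adjusted p = 0.126). In fed p110αhep-/- mice Elovl5 was not called (0.25, limma adjusted p = 0.475), and the difference between genotypes in the diet effect was -0.70 and also not called (limma adjusted p = 0.127). Elovl1 (-0.53, limma adjusted p = 0.00011) and Fads3 (-0.38, 0.00203) fell in fed p110αhep-/- mice, where 6.38% of genes fell and 5.82% rose. Within washing batch 2 they were at -0.35 and -0.32, and neither was called (limma adjusted p = 0.222 and 0.251). For Fads3 the difference between genotypes in the diet effect was not called (-0.36, limma adjusted p = 0.077). For Elovl1 the genotypes differed in the diet effect (-0.50, limma adjusted p = 0.0275), a call lost when any of 4 of 24 arrays was left out, and 2.83% of genes were called.

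In fasted mice, 2 members were called for diet in p110αhep+/+ and 4 in p110αhep-/- mice. Elovl2 was lower on HFD in both genotypes, by a log2 fold change of -0.60 in p110αhep+/+ and -0.65 in p110αhep-/- mice (limma adjusted p = 0.000546 and 0.000697). In p110αhep+/+ mice Elovl1 rose (0.43, limma adjusted p = 0.000581), where 8.96% of genes rose and 6.97% fell. In p110αhep-/- mice Elovl5 (-1.13), Fads2 (-0.78) and Fads1 (-0.61) fell as well, so that 4 members were lower and none higher, where 5.18% of genes fell and 5.65% rose. With the median of a gene's probes, Fads2 (-0.42) and Fads1 (-0.40) were no longer called. Within washing batch 1 none of the 4 was called, and within batch 2 only Elovl5 and Elovl2 were, with values in both batches between -0.56 and -1.16. The genotypes differed in this diet effect for 4 members, where 4.96% of genes were called: Elovl5 (-1.11, limma adjusted p = 0.00749), Fads1 (-0.86, 0.0145), Fads2 (-0.77, 0.0407) and Elovl1 (-0.46, 0.0317). The Fads2 and Elovl1 calls were lost when any of 11 and 7 of 24 arrays was left out. With the median of a gene's probes, the differences were -0.28 for Fads2 and -0.20 for Fads1, and neither was called.

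Between genotypes, every member that was called was lower in p110αhep-/- mice. In fed mice on CTRL diet, Elovl5 (-1.02), Fads2 (-0.71) and Fads1 (-0.44) were lower in p110αhep-/- mice (limma adjusted p = 4.99e-05, 0.00124 and 0.0337), where 10.6% of genes were lower and 10.9% higher. The Fads1 call was lost when any of 7 of 12 arrays was left out, with values between -0.51 and -0.36, and with the median of its probes Fads1 turned to 0.27 (limma adjusted p = 0.354). Within washing batch 1 and 2, neither Fads2 (-0.69 and -0.71) nor Fads1 (-0.50 and -0.37) was called. In fed mice on HFD, 5 members were lower and Elovl2 was not called, where 16.3% of genes were lower and 16.6% higher. Elovl5 differed by -1.71 (log2, SE 0.18, limma adjusted p = 4.99e-10), a 3.28-fold lower signal with no overlap. Fads2 (-0.99), Fads1 (-0.77), Elovl1 (-0.42) and Fads3 (-0.36) followed, and without replicate 3 of the p110αhep-/- group they were -1.05, -0.85, -0.45 and -0.37. Within washing batch 1 and 2 alone, Elovl5 was at -1.83 and -1.54 and called in both, while Fads2 (-1.19 and -0.73) and Fads1 (-0.998 and -0.51) were called within batch 1 only.

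In fasted mice a difference between diets in the genotype effect was called for 4 members (Elovl5, Fads1, Fads2 and Elovl1), with the limits given above. Fads3 and Elovl2 had no called difference between diets. On CTRL diet only Fads3 was called between genotypes (-0.33, limma adjusted p = 0.00157), where 12.3% of genes were lower and 12.5% higher. Fads1, Fads2 and Elovl5 had values of 0.15, 0.11 and -0.20. On HFD, Elovl5 (-1.31), Fads1 (-0.70), Fads2 (-0.67), Fads3 (-0.57) and Elovl1 (-0.35) were lower in p110αhep-/- mice, where 17.7% of genes were lower and 19.1% higher. The Fads2 call was made by 2 of its 5 probes, the brightest and the one over the histidine box (-0.51), while the other probes gave -0.14, -0.12 and 0.39 and were not called. With the median of a gene's probes Fads2 was at -0.12 (limma adjusted p = 0.649), Fads1 turned to 0.032 (limma adjusted p = 0.919), and Elovl5 was at -0.72 and still called. Elovl2 was not called between genotypes in any of the 4 settings, with log2 fold changes between -0.14 and 0.21. The median log2 fold change of the 6 members between genotypes in fed mice on HFD was -0.60, and that of all genes was 0.03.

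Markers of other liver cells moved in the same comparisons. Of 3 lymphocyte and 2 adipocyte markers, 1 each was higher in fed p110αhep-/- mice on HFD, and none was called in the other genotype comparisons. The median log2 fold change of the lymphocyte markers there was negative (-0.47). Their summed signal was 751 to 974 in p110αhep-/- and 698 to 1292 in p110αhep+/+ mice. The summed adipocyte signal in fed mice on HFD was 208 to 439 in p110αhep-/- and 173 to 239 in p110αhep+/+ mice, with medians of 224 and 198. The upper end was replicate 5 of the p110αhep-/- group alone, and the next highest mouse was at 246. Among 6 stellate cell markers, the collagen genes Col1a1 and Col3a1 were lower in p110αhep-/- mice on HFD, by log2 fold changes of -1.79 and -1.22 fed and -2.32 and -1.95 fasted. Reln was higher in both settings (0.35 and 0.34), and Dcn, Des and Lrat were not called. On CTRL diet, Lrat was lower (-0.65, limma adjusted p = 0.00336) and Reln higher (0.31) in fed p110αhep-/- mice, and Col1a1 and Col3a1 were lower in fasted ones (-0.99 and -0.87). The summed stellate signal in fed mice on HFD was 27434 to 36770 in p110αhep-/- and 27022 to 47159 in p110αhep+/+ mice. Of 4 cholangiocyte markers, 3 were lower in p110αhep-/- mice on HFD both fed and fasted, and their summed signal in fed mice was 296 to 436 in p110αhep-/- and 360 to 586 in p110αhep+/+ mice. On CTRL diet, 2 cholangiocyte markers were lower in fed p110αhep-/- mice, Epcam (-0.47, limma adjusted p = 1.10e-05) and Sox9 (-0.44), and 3 were lower in fasted ones. Among 5 endothelial markers, Lyve1 was lower in fed p110αhep-/- mice on CTRL diet and HFD (-1.13 and -0.82, limma adjusted p = 0.000274 and 0.00458), and 1 other was higher in each. In fasted p110αhep-/- mice on CTRL diet 2 were higher, Clec4g (0.43) and Kdr (0.27). In fasted p110αhep-/- mice on HFD 4 were higher, with summed signals of 16944 to 19072 against 10810 to 18000. No Kupffer cell marker out of 6 was called between genotypes in fed mice, and Vsig4 was higher in fasted p110αhep-/- mice on both diets (0.47 on CTRL diet and 0.50 on HFD, limma adjusted p = 0.0230 and 0.0174). Of the 6 hepatocyte markers, Cps1 was higher in p110αhep-/- mice on HFD, 2.56-fold fed and 2.14-fold fasted, and Ttr was lower (-0.18 in both). Cps1 was also higher on CTRL diet (log2 fold change 0.68 fed and 0.53 fasted, limma adjusted p = 0.000147 and 0.00123), as was Tat in fed mice (0.73, limma adjusted p = 0.0284) and Apoa1 in fasted mice (0.35), while Ttr was lower in fasted mice (-0.25).

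With fasting, Col1a1 and Col3a1 fell on CTRL diet, with log2 fold changes of -0.83 and -0.89 in p110αhep+/+ and -1.17 and -1.48 in p110αhep-/- mice, and on HFD in p110αhep-/- mice (-0.81 and -1.22). The stellate marker Lrat fell in p110αhep+/+ mice on both diets (-0.68 on CTRL diet and -0.45 on HFD) and in p110αhep-/- mice on HFD (-0.57). Krt19, a cholangiocyte marker, fell on CTRL diet in both genotypes (-0.58 in p110αhep+/+ and -1.05 in p110αhep-/- mice) and on HFD in p110αhep+/+ mice (-0.49). In each genotype on CTRL diet, 2 of the 4 cholangiocyte markers fell with fasting. Of 6 Kupffer cell markers, only Clec4f was called for fasting, lower in p110αhep+/+ mice on HFD (-0.33, limma adjusted p = 0.0373). Among 5 endothelial markers, Lyve1 rose in p110αhep-/- mice on both diets (1.07 on CTRL diet and 0.82 on HFD). Clec4g (-0.38) and Kdr (-0.26) fell in p110αhep+/+ mice on HFD, and that list held no other fasting call. Of 6 hepatocyte markers, Tat (0.60), Cps1 (0.45) and Apoa1 (0.35) rose in p110αhep+/+ mice on HFD. Apoa1 also rose in p110αhep-/- mice (0.35 on CTRL diet and 0.32 on HFD). On CTRL diet Tat rose (0.88 in p110αhep+/+ and 0.68 in p110αhep-/- mice) and Ttr fell (-0.14 and -0.30). With HFD, 3 of 6 stellate markers rose in fed p110αhep+/+ mice, where Elovl5 rose: Col1a1 (1.29), Col3a1 (1.13) and Dcn (0.35). The same 3 rose in fasted p110αhep+/+ mice, and none was called for diet in p110αhep-/- mice. The endothelial marker Stab2 rose with HFD in fed mice of both genotypes (0.22 in p110αhep+/+ and 0.25 in p110αhep-/- mice) and in fasted p110αhep-/- mice (0.28). Clec4g was lower on HFD in fed p110αhep-/- (-0.43) and fasted p110αhep+/+ mice (-0.47), and Kdr in fasted p110αhep+/+ mice (-0.26). No Kupffer cell marker was called for diet. Among the hepatocyte markers, Cps1 was lower on HFD in p110αhep+/+ mice, fed (-0.82) and fasted (-0.44). Ttr was higher on HFD in fasted mice of both genotypes (0.17 in p110αhep+/+ and 0.24 in p110αhep-/- mice), and no other was called for diet. In p110αhep-/- mice 1 adipocyte marker rose with HFD in the fed state and 1 fell with fasting on HFD. In p110αhep+/+ mice 1 lymphocyte marker rose with fasting on HFD, 1 rose with HFD in fasted mice and 1 fell with HFD in fed mice. The part of these cells in the results was not tested.

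Several probes told much the same story as the brightest probe of their gene, and others, described below, did not. Fads1 probe A_55_P2897923 had r = 0.96 and was called in 7 comparisons with the sign of the brightest probe, which was called in 8. The Fads2 probe over the histidine box correlated with the brightest probe at r = 0.98 across the 48 arrays and was called in the same 7 comparisons with the same sign, out of 12. Both Elovl1 probes kept were called in the same 8 comparisons with the same sign. Elovl5 probe A_55_P2522620, designed on a predicted transcript variant, had r = 0.97 and was called in 8 comparisons with the same sign. The dimmer Fads3 probe had r = 0.72 and the same sign in all 12 comparisons. These correlations describe arrays that share groups and normalization.

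Other probes of Fads2, Fads1 and Elovl5 gave a different picture in part of the comparisons. Fads2 probe A_55_P2729398, designed on a cDNA clone and lying at chr19:10161035-10161094, correlated with the brightest probe at r = 0.51. It did not fall on fasting of p110αhep+/+ mice on CTRL diet (0.02, limma adjusted p = 0.96), fell on HFD (-1.50), rose with HFD in fed p110αhep+/+ mice (0.81) and was not called in any of the 4 genotype comparisons (0.41, -0.45, 0.49 and 0.39). Fads2 probes A_65_P20641 and A_55_P2739989 had r = 0.92 and were each called in 5 of the 12 comparisons, all with the sign of the brightest probe, which was called in 7. They were not called for genotype in fasted mice on HFD or for diet in fasted p110αhep-/- mice (-0.41 and -0.42 for diet). Fads1 probe A_55_P2732843, also designed on a cDNA clone, had r = 0.80 and gave genotype effects of 0.27 in fed mice on CTRL diet and 0.03 in fasted mice on HFD, where the brightest probe gave -0.44 and -0.70. The dim Elovl5 probe A_55_P2718343 had r = 0.65 and was above background on 2 of 6 arrays in each of 3 of the 4 fasted groups, so its fasted values are not given. In fed mice it was not called between genotypes on CTRL diet (-0.04, limma adjusted p = 0.872) and was lower in p110αhep-/- mice on HFD (-0.45), where the brightest probe gave -1.02 and -1.71. The files give no exon annotation for these positions.

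**Figure D3:**
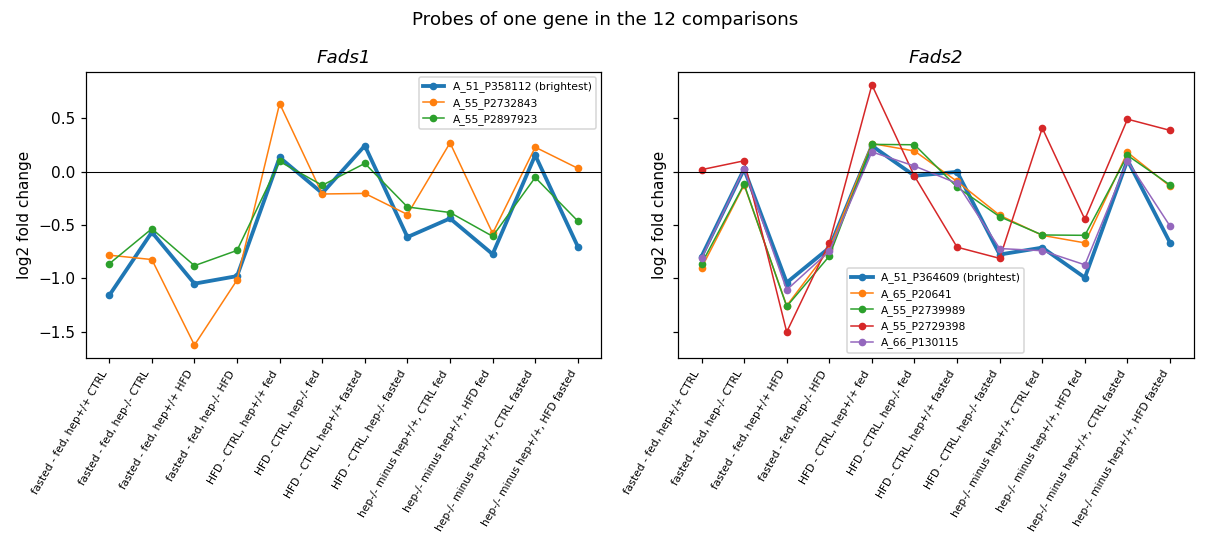
Log2 fold change (vertical axis) of every kept probe of Fads1 and Fads2 in the 12 comparisons (horizontal axis), with the brightest probe as a thick line. The Fads2 probe A_55_P2729398 lies above 0 in 3 of the 4 genotype comparisons, while the other Fads2 probes lie below 0 in 3 of them.

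Mice of the same group also varied together in these genes. After the group means were removed, Fads1 and Fads2 correlated at r = 0.82 over the 48 mice, Fads2 and Elovl2 at 0.72, and Fads2 and Elovl5 at 0.69. The 10 pairs without Fads3 lay between 0.16 and 0.82, and the 5 pairs with Fads3 between -0.11 and 0.24. Replicate 3 of fed p110αhep-/- mice on HFD was high in several members at once, with Fads1 at 13.40, Fads2 at 13.49 and Elovl2 at 14.78, while its Elovl5 was 13.79 within a group range of 13.44 to 13.85. These correlations are descriptions, since the genes were read on the same arrays and the mice share slides and scaling.

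**Figure D4:**
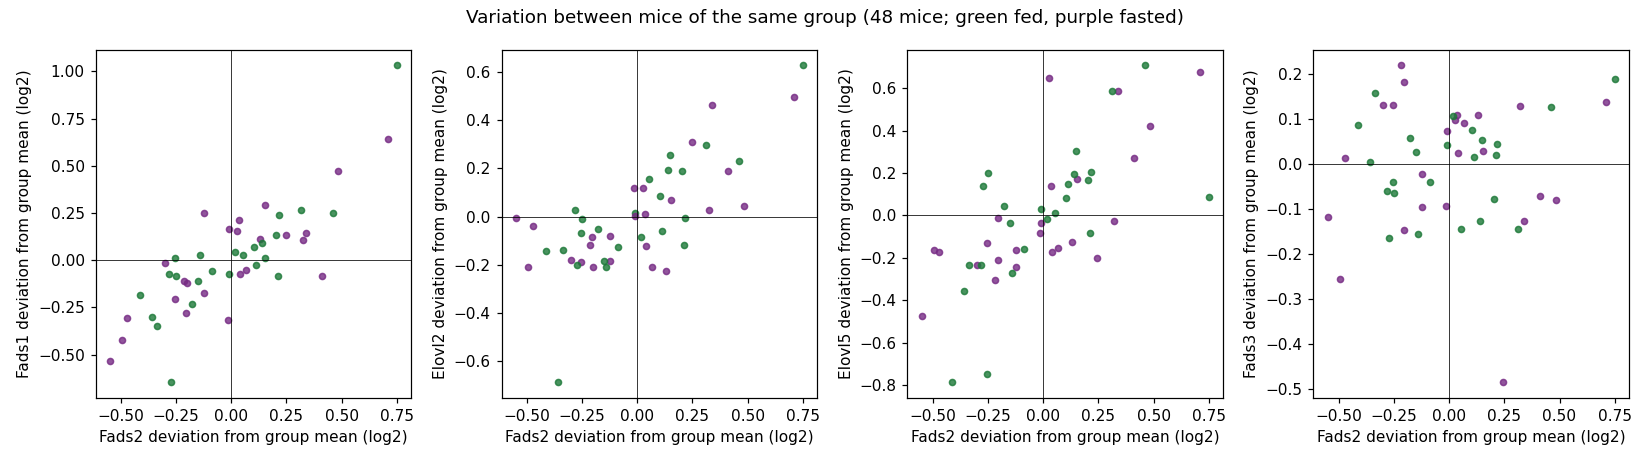
Deviation of each mouse from its group mean in log2 signal, for Fads2 (horizontal axis) against Fads1, Elovl2, Elovl5 and Fads3 (vertical axes), green for fed and purple for fasted mice. The points of Fads1 follow those of Fads2 (r = 0.82), and those of Fads3 do not (r = 0.09).

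The genes outside the members whose level was most like that of a member were found by Pearson correlation over all 48 arrays. Fads1 was closest to Dhcr7 (r = 0.92) and Pmvk (0.90), and Fads2 to Dhcr7 (0.89), Dbi (0.86) and Acsl5 (0.86). Genes close to Elovl1 were Lss (0.91) and Insig1 (0.89), and Elovl5 was closest to Acsl5 (0.93), Nudt1 (0.89) and Cald1 (0.89). Fads3 was closest to Scd3 (0.82), Cyb5r3 (0.81) and Thrsp (0.81). Elovl2 was closest to Pglyrp2 (0.74), a probe for an unnamed transcript (0.74) and Pold3 (0.73). After the group means were removed, these correlations were 0.29, 0.22 and 0.25 for the genes named for Fads3 and between 0.43 and 0.78 for those named for the other members.

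The other genes of the pathway were read from lists of 50 measured genes. On fasting of p110αhep+/+ mice on CTRL diet, 18 were lower and 11 higher, where 16.5% of all genes were lower and 16.0% higher. Elovl6, the elongase of palmitate, had a log2 fold change of -3.46 and Srebf1, which encodes SREBP-1, of -2.83 (limma adjusted p = 2.42e-18 and 1.10e-14). Insig1, a sterol sensor that retains SREBP, fell by 1.60, and Scd1, the desaturase that makes oleate, fell by 0.98. All 4 of these genes fell with fasting in both genotypes on both diets.

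Between genotypes in fed mice on HFD, 23 of the 50 were lower and 3 higher, where 16.3% of all genes were lower and 16.6% higher. Scd1 (-2.68) and Scd3 (-2.75) had larger changes than any member, and Elovl6 was at -1.73. Srebf1 was not called there (-0.43, limma adjusted p = 0.114) and was called lower in fed mice on CTRL diet (-0.70, limma adjusted p = 0.0139). The difference between diets in this genotype effect was not called for Srebf1. Of the 6 enzymes that complete each elongation cycle 4 were lower, with Hsd17b12, the ketoacyl reductase, at -0.94 (limma adjusted p = 2.29e-12). Of the 3 electron donors of desaturases, Cyb5b (-0.71) and Cyb5r3 (-0.77) were lower and Cyb5a was not called (0.04).

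Peroxisomal genes, which shorten very long polyunsaturated chains in the last step to docosahexaenoic acid, differed between diets in their calls on fasting. On CTRL diet 5 of 12 rose and 1 fell in p110αhep+/+ mice, and 8 rose in p110αhep-/- mice, with Acaa1b at 1.19 and Acaa1a at 1.11 in the latter, where 16.0% and 16.4% of all genes rose. On HFD 3 rose and 2 fell in p110αhep+/+ mice, where 13.8% of all genes rose and 14.7% fell. In p110αhep-/- mice on HFD 4 fell and none rose, where 14.6% of all genes fell and 13.9% rose. The fasting effect was called lower on HFD than on CTRL diet for 2 of the 12 in p110αhep+/+ and 8 in p110αhep-/- mice, where 2.36% and 7.90% of all genes were called in either direction. Between genotypes, 10 of the 12 were lower in fed p110αhep-/- mice on CTRL diet and 6 on HFD, where 10.6% and 16.3% of all genes were lower. In fasted p110αhep-/- mice 3 were lower on CTRL diet and 9 on HFD, where 12.3% and 17.7% of all genes were lower. Of 6 genes for placing polyunsaturated chains in phospholipids, 2 were lower in fed p110αhep-/- mice on HFD, against the same 16.3% of all genes. One was Lpcat3, the acyltransferase for arachidonate (-0.34), and the other Agpat3 (-0.28).

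**Figure D5:**
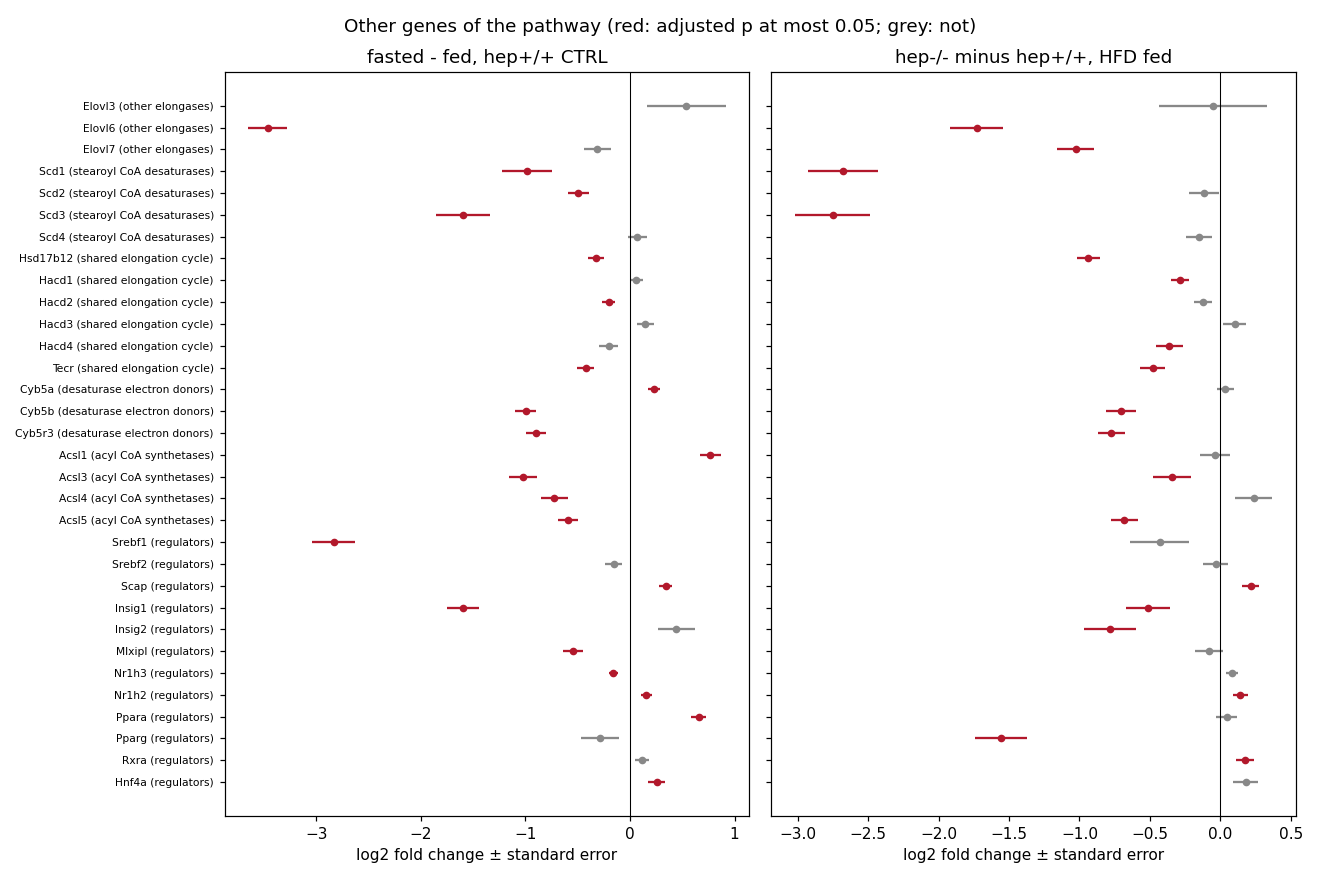
Log2 fold change ± standard error (horizontal axis) of other elongases, desaturases, elongation enzymes, electron donors, acyl-CoA synthetases and regulators (vertical axis), for fasting in p110αhep+/+ mice on CTRL diet and for genotype in fed mice on HFD. Elovl6 has the largest fall on fasting, at -3.46, and Scd3 the largest between genotypes, at -2.75.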

How the data were processed

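Liver RNA of 48 mice was measured on one-colour Agilent arrays. The deposited scanner files hold the intensity of each spot with no normalization, from Agilent Feature Extraction 10.10.1.1, and other columns such as flags, per the file headers. A table of log2 values that the authors filtered, corrected for the washing bath and quantile normalized was used as an alternative. Groups, replicate numbers and washing batches came from the labels.

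The log2 median signal was taken without control and outlier spots, and replicate spots were averaged. Probes were kept if well above background on at least 5 of 6 arrays of a group (30793 of 56605 probes). The washing batch was removed with the group means protected, and arrays were quantile normalized. All 48 arrays were fitted in limma 3.58.1 (R 4.3.3, statmod 1.5.0) with array weights. There were 12 simple comparisons and 6 differences between them. The Benjamini-Hochberg adjustment ran across the kept probes, and a call needs an adjusted p of at most 0.05 at the brightest probe of a gene. Comparisons share groups. The fit was tested on simulated data.

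Genes named are the members, Pik3ca, listed pathway genes and the 3 genes closest to each member, some of which are not reported here. The members and lists were chosen with earlier results of these data known. Positions are mm9 as in the scanner files. Promoters are from RefSeq on GRCm38.p6, matched by symbol for 5 of the 6 members. The number of arrays limits the precision. Alternatives covered signal, scaling, filters, batches, slides, weights, probes, thresholds and left-out arrays.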

Additional observations from a re-analysis of the deposited data

Results flagged for a closer look

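Of 48 sets of 6 mice (6 genes in 8 groups), 6 held a mouse whose gap to the others was large by Dixon's test, which chance gives for about 1 set in 20. In fed p110αhep-/- mice on HFD, replicate 3 was high for Fads2 (13.49, the others 12.46 to 12.72) and for Elovl2 (14.78, the others 13.95 to 14.17). Fads1 was high in replicate 4 of fed p110αhep-/- mice on CTRL diet (12.70, the others 12.37 to 12.46). In fasted mice on HFD, Elovl5 was high in replicate 5 of the p110αhep-/- group (13.08, the others 12.23 to 12.41), Fads3 was low in replicate 2 of that group (6.44, the others 6.94 to 7.06), and Elovl2 was high in replicate 1 of the p110αhep+/+ group (13.83, the others 13.12 to 13.37).

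A difference between groups in the same effect passed the limma test 13 times, over 6 members and 6 such differences. Of all genes, between 2.36% and 7.90% were called for each difference. Calls lost when an array was left out are given in the text above. The diet effect differed between genotypes in fed mice for Elovl1 (-0.50) and in fasted mice for Elovl5 (-1.11), Fads1 (-0.86), Fads2 (-0.77) and Elovl1 (-0.46). The fasting effect differed between genotypes on CTRL diet for Fads2 (0.82). The fasting effect differed between diets in p110αhep+/+ mice for Elovl5 (-0.96), Elovl2 (-0.68) and Elovl1 (0.47), and in p110αhep-/- mice for Elovl5 (-1.38), Elovl2 (-0.80), Fads2 (-0.74) and Elovl1 (0.51).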

How the results depend on the processing

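Left-out arrays apart, the 55 calls of single members gave 798 values under other settings: 700 kept direction and call, 96 kept direction only and 2 reversed. Both reversals came with the median of a gene's probes, where Fads1 between genotypes was 0.27 in fed mice on CTRL diet and 0.032 in fasted mice on HFD. That median is the value of probe A_55_P2732843, whose signal lay between those of the other 2 Fads1 probes on every array, and both other probes gave lower signal in p110αhep-/- mice (-0.44 and -0.38 in the first comparison, -0.70 and -0.46 in the second). With the same setting, values that moved by over 1.5 times, beside those in the text above, were Fads1 (-1.63) for fasting of p110αhep+/+ mice on HFD, Elovl5 (-0.81) and Fads3 (-0.16) for fasting of p110αhep-/- mice on HFD, Fads2 (-0.42) and Fads1 (-0.40) for diet in fasted p110αhep-/- mice, and Fads2 (-0.60) for genotype in fed mice on HFD. Requiring a fold change over 1.5 left 36 of the 55 calls. Within washing batch 1 or 2, with fewer mice per group, 29 and 30 of the 55 calls were lost and none reversed. Elovl1 moved by over 1.5 times for fasting of p110αhep-/- mice on HFD (-0.17 within batch 1), for diet in fed p110αhep-/- mice (-0.35 within batch 2), for genotype by diet in fed mice (-0.78 and -0.24 within batch 1 and 2) and for diet by fasting in p110αhep-/- mice (0.33 within batch 2). For the other changes the cause was not tested. Fads3 is dim, and the 6 mice per group limit small differences.

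The number of members called moved by over 1.5 times as follows. Within batch 1, fasting called 3 members in p110αhep+/+ mice on CTRL diet (5 before) and 2 in p110αhep-/- mice on HFD (6 before), diet called 0 in fasted mice of either genotype (2 and 4 before), and genotype called 1 and 0 in fed and fasted mice on CTRL diet (3 and 1 before). Within batch 2, diet called 0 in fed mice of either genotype (1 and 2 before) and 2 in fasted p110αhep-/- mice, and genotype called 1 in fed mice on either diet (3 and 5 before) and 3 in fasted mice on HFD (5 before). The differences between effects gave 0 calls within a batch, except 1 for diet by fasting in p110αhep-/- mice within batch 1. With a fold change over 1.5, fasting of p110αhep-/- mice on CTRL diet kept 1 call, diet 0 in fed p110αhep-/- and 1 in fasted p110αhep+/+ mice, genotype 3 in fed and 3 in fasted mice on HFD and 0 in fasted mice on CTRL diet, and genotype by diet in fed mice 0. With the median of a gene's probes, diet called 2 members in fed p110αhep+/+ and 2 in fasted p110αhep-/- mice, genotype 3 in fasted mice on HFD, genotype by diet 2 in fed and 2 in fasted mice, and genotype by fasting on HFD 1.

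The differences between effects depended most on the setting. Genotype by diet in fed mice (1 call) gave 0 without the filter on dim probes, without the washing correction and without array weights, and 2 with fed mice alone. In fasted mice (4 calls) it gave 2 without the filter, without weights and with fasted mice alone. Genotype by fasting on CTRL diet (1 call) gave 0 without the filter or weights, and 2 with normexp, with probes above background on every array and with the slide as a block. Diet by fasting in p110αhep+/+ mice (3 calls) gave 0 without the filter and 1 without weights. With 1 array left out, these counts were 0 to 1, 2 to 4, 0 to 3 and 0 to 3.

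Mice with the same replicate number did not deviate together (mean r = 0.018 over 168 pairs, from -0.35 to 0.34), which gave no sign that the numbers pair them. It cannot exclude a pairing, since mice on the same slide also had a mean r of only 0.0098. With the replicate number as a block, diet by fasting in p110αhep+/+ mice called 1 member in place of 3, and 51 of the 55 single calls were kept.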
